A study of Homo sapiens with 12 samples.

Results

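The genes described here are those of the histones, the proteins around which DNA is wound, in MDA-MB-231 cells. Members were taken by symbol: the clustered genes, whose symbols begin with H2AC, H2BC, H3C or H4C and the linker histone genes H1-1, H1-2, H1-3, H1-4 and H1-6, and the replication-independent genes, among them H1-10, H2AX, H2AZ1, H2AZ2, H2AJ, H3-3A, H3-3B and MACROH2A1. They came to 60 of the 16384 genes listed, 51 of them clustered and 9 replication-independent. MACROH2A2 was not analysed here. MDA-MB-231 is an established line from a triple-negative breast cancer, labelled WT in genotype, and RNA of 12 libraries was sequenced in 4 groups of 3. The Combination group received 10 µmol/L CAR together with 25 µmol/L JQ1, the JQ1 group 25 µmol/L JQ1 alone, the CAR group 10 µmol/L CAR alone, and the control group DMSO. JQ1 displaces the BET bromodomain proteins from acetylated histones, and CAR stands for cardamonin, a plant chalcone named in the title of the study, which asked about invasion and metastasis. The labels give no time of treatment, and the data come from a single cell line.

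Clustered histone genes lie side by side in the genome and are transcribed mainly in S phase, when new chromatin is packed. Most of their mRNA carries no poly(A) tail: it ends just past a short stem-loop that the protein SLBP binds, and it is cut there by a dedicated machinery. The replication-independent genes are spliced or end in ordinary poly(A) tails, and their proteins enter chromatin throughout the cell cycle. The libraries here were made from poly(A) RNA, so that all values below are of RNA that came through poly(A) selection. Histone mRNA without a tail was not measured as such, and how much of it remained in these libraries was not tested. In bulk RNA a change in the number of cells that carry a transcript and a change in its amount per cell cannot be told apart.

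The sequences that carry these features are shown for a few genes. The stem-loop at the end of the transcript is given from GENCODE 29 for genes with different behaviour, with the loop in capitals; H2BC21 and H4C8 are clustered, and H2AX is counted among the replication-independent genes although its transcript model holds one.
H2BC21: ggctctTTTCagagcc
H4C8: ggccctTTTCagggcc
H2AX: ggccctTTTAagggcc
In the longest models of these genes the transcript ran on for 1729 bases past the stem-loop in H2BC21, for 1655 bases in H4C8 and for 1044 bases in H2AX.

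The promoters, from RefSeq on GRCh38.p14, run from 250 bases before the start to 50 bases after it, 5′ to 3′. Capitals mark TATAAA (the TATA box), the CCAAT box, ATTTGCAT (the octamer) and AAACACA (the H1 box), searched on both strands, and neighbouring matches can overlap. H2BC21 at chr1:149886633-149886932, minus strand, H2BC12 at chr6:27146809-27147108, minus strand and H2BC11 at chr6:27132746-27133045, minus strand are shown because these H2B genes differed widely in their response. H1-2 at chr6:26056421-26056720, minus strand and H4C8 at chr6:26285485-26285784, minus strand are shown as the genes with the highest counts of the clustered H1 and H4 families.
H2BC21: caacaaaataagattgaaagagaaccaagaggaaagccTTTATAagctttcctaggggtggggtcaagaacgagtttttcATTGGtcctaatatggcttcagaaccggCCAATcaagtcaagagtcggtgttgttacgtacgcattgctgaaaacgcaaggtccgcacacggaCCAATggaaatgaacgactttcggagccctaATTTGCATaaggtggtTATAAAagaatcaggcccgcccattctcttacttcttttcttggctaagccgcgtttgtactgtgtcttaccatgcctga
H2BC12: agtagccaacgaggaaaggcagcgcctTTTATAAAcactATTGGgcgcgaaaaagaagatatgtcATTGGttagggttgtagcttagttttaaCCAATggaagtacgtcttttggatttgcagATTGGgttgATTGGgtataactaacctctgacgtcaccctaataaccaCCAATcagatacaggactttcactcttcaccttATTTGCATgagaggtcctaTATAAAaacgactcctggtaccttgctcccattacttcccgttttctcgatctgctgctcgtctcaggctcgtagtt
H2BC11: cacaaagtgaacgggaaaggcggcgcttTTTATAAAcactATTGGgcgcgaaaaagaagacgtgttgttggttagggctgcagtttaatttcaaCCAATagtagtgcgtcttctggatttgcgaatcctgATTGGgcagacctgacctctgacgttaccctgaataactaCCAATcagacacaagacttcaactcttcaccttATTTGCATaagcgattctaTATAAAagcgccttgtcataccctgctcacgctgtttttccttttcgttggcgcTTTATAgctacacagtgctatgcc
H1-2: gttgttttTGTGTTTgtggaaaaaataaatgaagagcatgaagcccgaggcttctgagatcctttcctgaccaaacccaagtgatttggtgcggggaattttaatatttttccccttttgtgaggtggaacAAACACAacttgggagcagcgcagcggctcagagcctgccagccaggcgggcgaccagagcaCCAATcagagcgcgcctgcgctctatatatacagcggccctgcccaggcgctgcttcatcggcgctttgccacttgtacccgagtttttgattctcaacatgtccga
H4C8: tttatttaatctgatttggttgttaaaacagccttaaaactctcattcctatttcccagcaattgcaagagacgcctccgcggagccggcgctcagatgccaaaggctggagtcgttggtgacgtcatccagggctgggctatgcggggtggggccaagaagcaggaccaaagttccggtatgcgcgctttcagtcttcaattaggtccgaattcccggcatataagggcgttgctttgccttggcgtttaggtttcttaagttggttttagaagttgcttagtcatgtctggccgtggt
The octamer stood in the window of H2BC21, H2BC12 and H2BC11 alike, once in each. Of the 50 promoters of clustered genes, 72.0% held TATAAA, against 11.5% of all 35116 promoters. CCAAT stood in 86.0% of them, against 34.6% of all promoters, but in only 12.5% of the 8 clustered H4 promoters. The octamer was found in 40.0% of the clustered promoters, against 1.77% of all promoters. Of the 12 promoters of replication-independent genes, 75.0% held CCAAT, 33.3% TATAAA and 8.33% the octamer. Within the families, 75.0% of H2B and 66.7% of H2A promoters held the octamer, and 0 of the clustered H1, H3 and H4 promoters did. The H1 box stood in all 5 clustered H1 promoters, against 5.64% of all promoters. Such a match describes the letters of the window and is not a measured binding site.

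The libraries held 17449715 to 19754456 counts each, and 12645 genes passed the filter on low counts. VIM, high in this line, had 38684 to 44989 counts in the CAR and DMSO libraries and 8938 to 16314 in the JQ1 and Combination libraries. CD44, also high in it, had 10278 to 15118 over all libraries. ESR1 had 0 to 9 counts and PGR 0 to 13, while ERBB2 had 1858 to 2764 and EPCAM 43 to 337. DMSO library 3 stood apart from the other DMSO libraries, with a chi-square per degree of freedom of 10.6 and 12.6 against 1.46 to 2.31 for all other replicate pairs, and the clustered genes tested lay a median of 0.14 log2 units above those libraries in it. Combination library 1 held 1429 counts of ALB, against 4 to 10 in the others, and the summed level of 14 liver genes ran from 2.14 to 170 CPM in Combination, 1.79 to 2.18 in JQ1, 1.42 to 2.08 in CAR and 3.11 to 3.94 in DMSO. In that library the histone genes tested differed from the other Combination libraries by a median of -0.03 log2 units. Without DMSO library 3 the clustered genes called in JQ1 against DMSO were 23 higher and 0 lower, with 5351 and 5371 over all 12727 genes tested there. Without Combination library 1 they were 24 and 0, with 5262 and 5353 over all 12741. More genes passed the filter in these fits than in the full one, so the counts can rest on more clustered genes.

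Counts of clustered histone genes made up a larger share of the poly(A) libraries with JQ1. The 51 clustered genes together took 0.129%, 0.130% and 0.128% of all counts in the Combination libraries and 0.145%, 0.142% and 0.149% in the JQ1 libraries, against 0.0228%, 0.0213% and 0.0225% in CAR and 0.0235%, 0.0230% and 0.0275% in DMSO. Every library with JQ1 lay above every library without it. The mean share in JQ1 was 5.90 times that in DMSO, and that in Combination 5.81 times that in CAR. The 9 replication-independent genes took 0.184% ± 0.00148 in Combination, 0.229% ± 0.00297 in JQ1, 0.202% ± 0.00295 in CAR and 0.239% ± 0.0135 in DMSO (SD, n = 3 each). For these genes the direction of JQ1 against DMSO and of Combination against CAR depended on the scaling. Over TMM effective library sizes the shares were 0.199% in Combination, 0.233% in JQ1, 0.198% in CAR and 0.223% in DMSO. Combination lay below JQ1 and DMSO, and CAR below DMSO, under either scaling. By family, the clustered sum in JQ1 was 17 times that in DMSO for H1, 16.8 times for H4, 7.57 times for H2A, 5.23 times for H3 and 4.12 times for H2B. The H1 sum was almost all H1-2, with 9709 of 9741 counts in JQ1 library 1. In the DMSO libraries the H4 sum rested on 17, 24 and 34 counts and the H3 sum on 29, 24 and 31. A sum over a family does not depend on how counted reads were divided among near-identical copies. It can miss reads that were not counted because they matched several copies, and how such reads were treated is not given. No test was made of the sums.

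**Figure D1:**
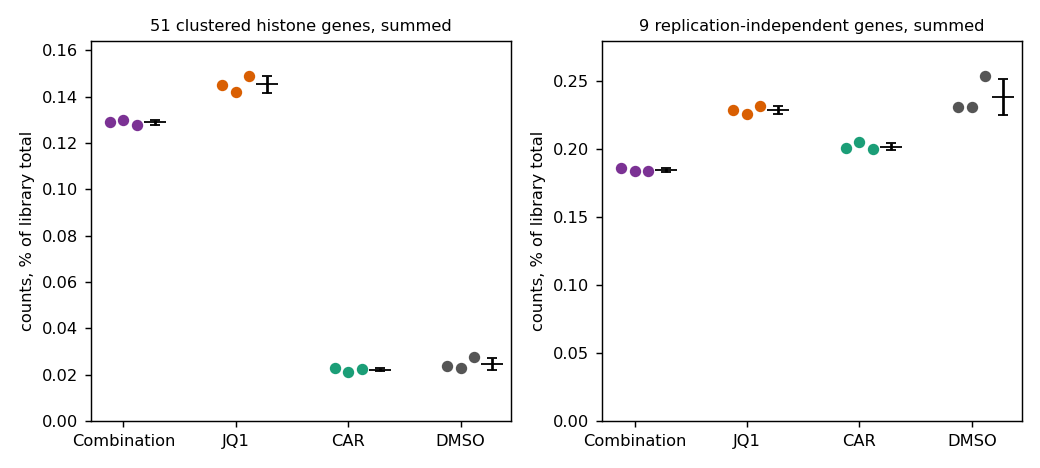
Summed counts of the 51 clustered (left) and 9 replication-independent (right) histone genes as a percent of the library total, 1 point per library, with the mean and SD of each group beside them. The clustered sum lies between 0.128% and 0.149% in the Combination and JQ1 libraries and between 0.0213% and 0.0275% in the CAR and DMSO libraries.

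Of the 51 clustered genes, 39 had more counts in the 3 JQ1 libraries together than in the 3 DMSO libraries, 3 had fewer and 9 had the same number. For Combination against CAR the numbers were 43, 4 and 4. The edgeR test could be run on 23 of the 51. Of these, 22 were called higher in JQ1 than in DMSO and 0 lower, where 41.5% of all genes tested were called higher and 42.2% lower. Their median log2 change was 3.03, with -0.01 over all genes tested. H3C3 was not called. At an unadjusted p under 0.05 and by DESeq2 the number of lower genes was also 0 in this contrast and in both Combination contrasts that follow. In Combination against DMSO the count was again 22 higher and 0 lower (background 42.6% higher and 42.8% lower), with a median of 2.97 and with H2AC15 not called. In Combination against CAR it was 22 higher and 0 lower (background 42.4% higher and 43.0% lower), with a median of 3.42 and with H2BC17 not called. These contrasts share their libraries with one another.

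The filter bears on these counts. Of the 23 tested, 11 reached the required 0.534 CPM in 3 libraries only through the JQ1 and Combination libraries, so that the filter favoured a difference, and their values below are descriptions. They were H1-4, H2AC13, H2AC15, H2AC17, H2AC18, H2AC19, H2BC18, H3C2, H3C3, H4C12 and H4C15. The other 12 reached it without them. Of those 12, all were called higher in JQ1 than in DMSO, with log2 changes from 0.36 to 4.67 and a median of 3.07. The call of the gene with the smallest change, H2BC11, was lost in most alternative fits, as given below. In Combination against DMSO 12 of the 12 were higher (0.91 to 5.05, median 2.92), and in Combination against CAR 11 of the 12 (0.64 to 4.96, median 3.47). The 28 clustered genes that did not pass had at most 14 counts in any library, and their counts summed to 234 in Combination, 200 in JQ1, 60 in CAR and 63 in DMSO. With total counts in place of TMM factors, 21 of the 23 were called higher in JQ1, while over all genes the split became 4561 higher and 6047 lower, against 5247 and 5332. The TMM factors shifted the log2 change of every gene by 0.12 in JQ1 against DMSO, by 0.21 in Combination against DMSO and by 0.14 in Combination against CAR.

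**Figure D2:**
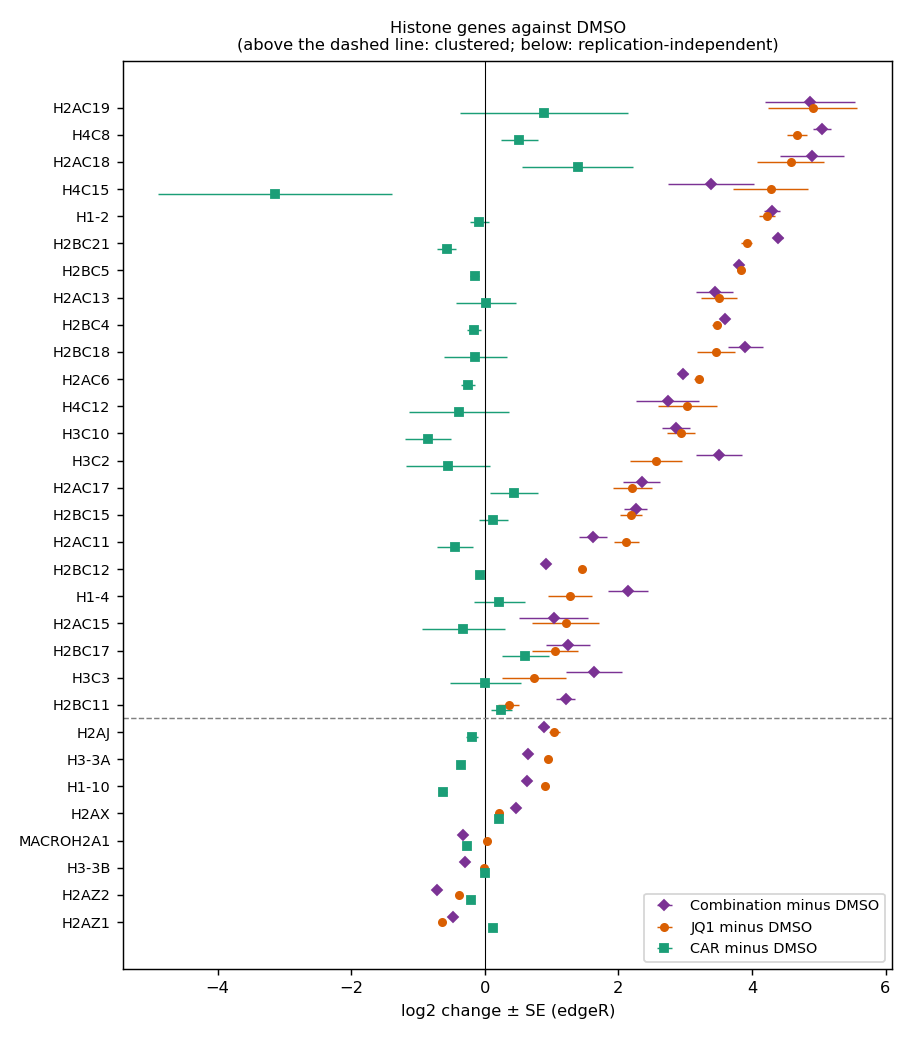
Log2 change with its standard error from edgeR for the 23 clustered and 8 of the replication-independent genes tested, in Combination (diamonds), JQ1 (circles) and CAR (squares) against DMSO. All clustered genes lie to the right of 0 for Combination and JQ1, from 0.36 to 5.05, and around 0 for CAR, where H4C15 (1 count in all CAR libraries) has the widest bar.

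The linker histones bind where DNA enters and leaves the nucleosome. H1-2, a clustered linker histone gene at chr6:26055787-26056428 with a single exon, stood at 548, 538 and 537 normalised CPM in the Combination libraries and at 518, 504 and 525 in JQ1, against 28.5, 24.9 and 24.8 in CAR and 23.7, 23.5 and 35.2 in DMSO. The groups with and without JQ1 did not overlap, and DMSO library 3 was the highest of those without. The change was 18.7-fold higher in JQ1 than in DMSO (log2 4.23 ± 0.12 SE, edgeR adjusted p = 1.58e-11) and 19.6-fold higher in Combination (log2 4.30 ± 0.12). Of all clustered histone counts H1-2 took 38.8% ± 0.634 in Combination and 34.9% ± 0.162 in JQ1, against 12% ± 0.765 in CAR and 11.8% ± 1.71 in DMSO (SD, n = 3 each). Of the other clustered H1 genes H1-4 was tested, at 1.89, 1.98 and 1.99 normalised CPM in Combination and 1.49, 0.774 and 0.932 in JQ1, against 0.297, 0.565 and 0.677 in CAR and 0.493, 0.425 and 0.391 in DMSO. H1-4 passed the filter only through libraries with JQ1. H1-1, H1-3 and H1-6 had at most 0.468 normalised CPM in any library.

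H2A and H2B pair to form the outer part of the histone core. H2AC6, the clustered H2A gene with the most counts, stood at 50.3, 51.7 and 51.9 normalised CPM in Combination and 59.5, 63.1 and 58.0 in JQ1, against 6.13, 5.19 and 5.26 in CAR and 6.96, 6.06 and 6.65 in DMSO. Libraries with JQ1 did not overlap those without, and Combination lay below JQ1. It was 9.16-fold higher in JQ1 than in DMSO (log2 3.20 ± 0.07, edgeR adjusted p = 2.22e-20). H2AC19 had 11, 23 and 26 counts in Combination and 17, 29 and 19 in JQ1, against 2, 0 and 2 in CAR and 0, 2 and 0 in DMSO. JQ1 held 33 times as many as DMSO, with a 95% counting error from 8.77 to 278. H2AC18, its near-identical copy, and the other H2A genes tested stayed between 0 and 5.25 normalised CPM. Clustered genes supplied 6.38% ± 0.176 of all H2A counts in Combination and 7.09% ± 0.482 in JQ1, against 0.688% ± 0.0370 in CAR and 0.776% ± 0.0162 in DMSO.

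H2BC12 had the most counts of the clustered genes without JQ1. It stood at 289, 303 and 283 normalised CPM in Combination and 424, 409 and 454 in JQ1, against 151, 140 and 152 in CAR and 149, 149 and 168 in DMSO. Here the Combination libraries formed a level of their own between JQ1 and the groups without JQ1. H2BC12 was 2.76-fold higher in JQ1 (log2 1.46 ± 0.05, edgeR adjusted p = 7.27e-17) and 1.87-fold higher in Combination (log2 0.91 ± 0.05, edgeR adjusted p = 2.61e-13) than in DMSO. Its share of all clustered histone counts was 20.9% in Combination and 29% in JQ1, against 68.1% in CAR and 67.6% in DMSO.

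H2BC5 stood at 264, 275 and 260 normalised CPM in Combination and 275, 269 and 270 in JQ1, against 16.6, 16.9 and 18.3 in CAR and 18.9, 17.5 and 20.8 in DMSO. H2BC21 stood at 93.5, 95.6 and 91.5 in Combination and 64.8, 66.2 and 72.1 in JQ1, against 2.92, 3.13 and 2.97 in CAR and 4.88, 3.56 and 4.89 in DMSO. H2BC4 stood at 76.0, 78.5 and 78.6 in Combination and 73.4, 69.0 and 71.6 in JQ1, against 5.89, 6.01 and 5.46 in CAR and 5.92, 5.90 and 7.48 in DMSO. For these H2B genes the JQ1 and Combination libraries all lay far above the others, by 14.2-fold, 15.1-fold and 11.1-fold for JQ1 against DMSO in that order. In H2BC21 and H2BC4 the Combination libraries also lay above the JQ1 libraries, and in H2BC21 the CAR libraries lay below the DMSO libraries.

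H2BC11 had the smallest change of the clustered genes called in JQ1 against DMSO. It stood at 6.91, 7.5 and 8.08 normalised CPM in Combination and 4.16, 4.14 and 4.14 in JQ1, against 3.81, 4.78 and 2.97 in CAR and 3.35, 2.76 and 3.57 in DMSO. Combination alone lay apart from the other groups, and JQ1 overlapped CAR. The log2 change was 0.36 ± 0.16 in JQ1 (edgeR adjusted p = 0.0432) and 1.21 ± 0.14 in Combination (edgeR adjusted p = 8.37e-08) against DMSO. Without DMSO library 2 the JQ1 value was 0.26 (edgeR adjusted p = 0.166), and with total counts 0.24 (edgeR adjusted p = 0.172). Over 18 alternatives its adjusted p ran from 0.0191 to 0.172, and the call was lost under most of them. H2BC15 and H2BC17 were also called higher in JQ1, by log2 values of 2.19 and 1.05. The model of H2BC15 overlaps 3 other genes.

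H3 and H4 form the inner tetramer of the nucleosome. H4C8, the clustered H4 gene with the most counts, stood at 21.4, 21.2 and 21.6 normalised CPM in Combination and 15.7, 17.5 and 16.1 in JQ1, against 0.890, 1.08 and 0.781 in CAR and 0.395, 0.691 and 0.831 in DMSO. It was 25.5-fold higher in JQ1 (log2 4.67 ± 0.15, edgeR adjusted p = 9.36e-18) and 33.2-fold higher in Combination (log2 5.05 ± 0.14, edgeR adjusted p = 1.00e-18) than in DMSO. H3C10, the clustered H3 gene with the most counts, stood at 6.68, 4.54 and 5.15 in Combination and 6.30, 4.86 and 5.94 in JQ1, against 0.396, 0.308 and 0.520 in CAR and 0.839, 0.691 and 0.685 in DMSO. It was 7.65-fold higher in JQ1 than in DMSO (edgeR adjusted p = 1.34e-11). H3C3 had 17, 12 and 12 counts in Combination and 4, 7 and 12 in JQ1, against 8, 3 and 4 in CAR and 5, 5 and 5 in DMSO. JQ1 overlapped DMSO for this gene (log2 0.74 ± 0.48, edgeR adjusted p = 0.156), and without JQ1 library 1 it passed the test (log2 1.08, edgeR adjusted p = 0.0454, with 0.0454 to 0.695 over 17 alternatives). H4C15 had 111 counts over the Combination libraries and 219 over the JQ1 libraries, against 1 over the CAR libraries and 12 over the DMSO libraries. Per library size Combination held 116 times as many as CAR, with counting error from 20.3 to 4610. Against DMSO the edgeR change was smaller, at 10.5-fold in Combination and 19.4-fold in JQ1. H4C15 passed the filter only through libraries with JQ1, and its model overlaps that of HIST2H3A.

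**Figure D3:**
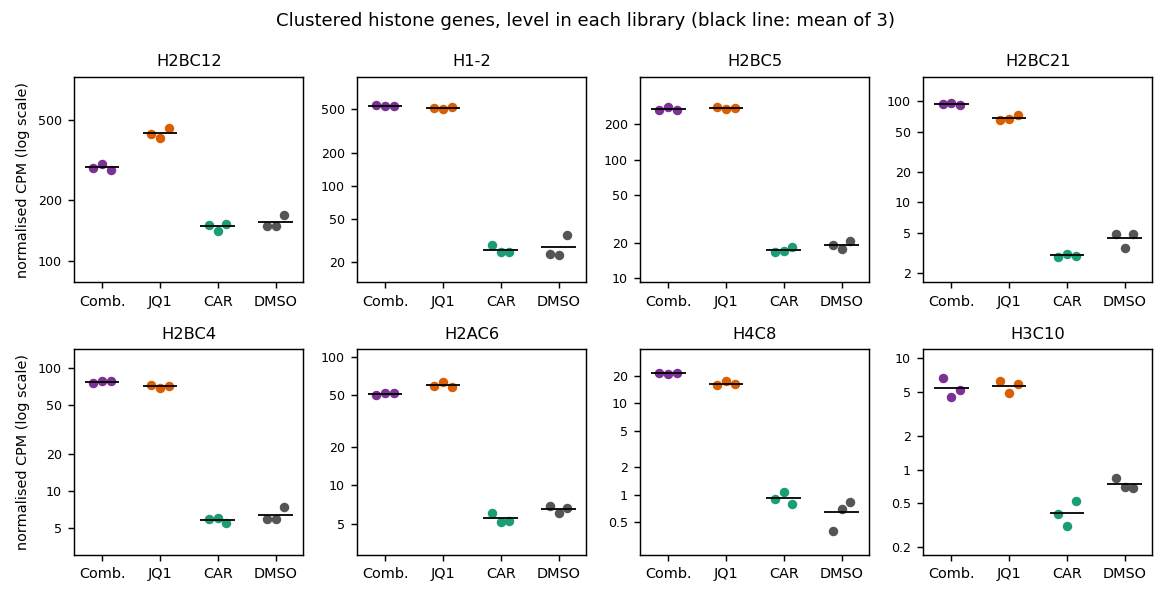
Normalised CPM of 8 clustered genes in each library on a log scale, 1 point per library with the mean of 3 as a line. In all 8 the Combination and JQ1 libraries lie above the CAR and DMSO libraries; in H2BC12 Combination (283 to 303) lies between JQ1 (409 to 454) and the rest.

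The replication-independent genes moved in both directions and by less. In JQ1 against DMSO 5 of 9 were called higher and 2 lower (background 41.5% and 42.2%), with a median log2 change of 0.22, and with total counts the split was 4 and 4. In Combination against DMSO 4 were higher and 5 lower (background 42.6% and 42.8%), with a median of -0.29. In Combination against CAR 5 were higher and 3 lower (background 42.4% and 43.0%), with a median of 0.26. The counts of higher genes were near these shares.

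H3-3A and H3-3B encode the same protein, the variant H3.3 that enters chromatin throughout the cell cycle, and they parted. H3-3A stood at 245, 236 and 233 normalised CPM in Combination and 292, 289 and 291 in JQ1, against 118, 121 and 115 in CAR and 145, 149 and 161 in DMSO. H3-3B stood at 418, 419 and 416 in Combination and 501, 514 and 508 in JQ1, against 503, 520 and 510 in CAR and 487, 500 and 548 in DMSO. H3-3A was higher with JQ1, by 1.91-fold over DMSO (log2 0.94 ± 0.04, edgeR adjusted p = 2.73e-15), and did not overlap between any pair of groups. H3-3B differed from DMSO by -0.01 ± 0.04 in JQ1 (edgeR adjusted p = 0.790; -0.13 with total counts, edgeR adjusted p = 0.00487, with 0.00487 to 0.994 over 18 alternatives) and was lower in Combination, whose libraries lay below all others (log2 -0.29 ± 0.04, edgeR adjusted p = 5.01e-07). H3-3A thus made up 35.8% of H3 counts in Combination and 36.0% in JQ1, against 18.7% in CAR and 22.8% in DMSO.

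H2A.Z, a variant found at promoters, is encoded by H2AZ1 and H2AZ2. H2AZ1 stood at 332, 322 and 311 normalised CPM in Combination and 294, 279 and 288 in JQ1, against 481, 504 and 483 in CAR and 424, 432 and 482 in DMSO. H2AZ2 stood at 173, 183 and 172 in Combination and 224, 218 and 221 in JQ1, against 250, 250 and 250 in CAR and 284, 288 and 292 in DMSO. Both were lower with JQ1, by log2 -0.64 ± 0.04 and -0.38 ± 0.04 against DMSO (edgeR adjusted p = 1.22e-11 and 1.17e-09). H2AZ2 was lowest in Combination and H2AZ1 in JQ1.

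H2AX, the variant phosphorylated at DNA breaks, stood at 224, 231 and 226 normalised CPM in Combination and 192, 183 and 200 in JQ1, against 193, 194 and 182 in CAR and 155, 151 and 186 in DMSO. JQ1 and CAR overlapped each other and DMSO library 3. The log2 change against DMSO was 0.47 ± 0.06 in Combination (edgeR adjusted p = 7.73e-07) and 0.22 ± 0.06 in JQ1 (edgeR adjusted p = 0.00238; 0.1 with total counts, edgeR adjusted p = 0.132, the highest of 18 alternatives). H2AJ, an H2A variant whose gene ends in a poly(A) signal, stood at 24.8, 27.9 and 26.0 in Combination and 28.9, 27.7 and 31.3 in JQ1, against 12.1, 13.6 and 11.7 in CAR and 14.2, 12.4 and 16 in DMSO. It was 2.06-fold higher in JQ1 than in DMSO (edgeR adjusted p = 1.09e-10). MACROH2A1, which encodes an H2A with a large extra domain, stood at 182, 188 and 184 in Combination and 229, 233 and 239 in JQ1, against 189, 192 and 189 in CAR and 234, 231 and 224 in DMSO. Its level followed CAR: both groups with CAR lay below both groups without it, and JQ1 differed from DMSO by 0.03 ± 0.04 (edgeR adjusted p = 0.478; -0.09 with total counts, edgeR adjusted p = 0.0179, the lowest of 18 alternatives).

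H1-10, a replication-independent linker histone, stood at 157, 148 and 157 in Combination and 182, 180.0 and 196 in JQ1, against 65.6, 66.2 and 62.9 in CAR and 97.1, 91.5 and 111 in DMSO. The groups were ordered JQ1, Combination, DMSO and CAR with no overlap between neighbours. In JQ1 against DMSO H1-10 was 1.86-fold higher (edgeR adjusted p = 1.79e-12). An antisense gene overlaps H1-10, and the sources do not say whether the counting used strand.

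**Figure D4:**
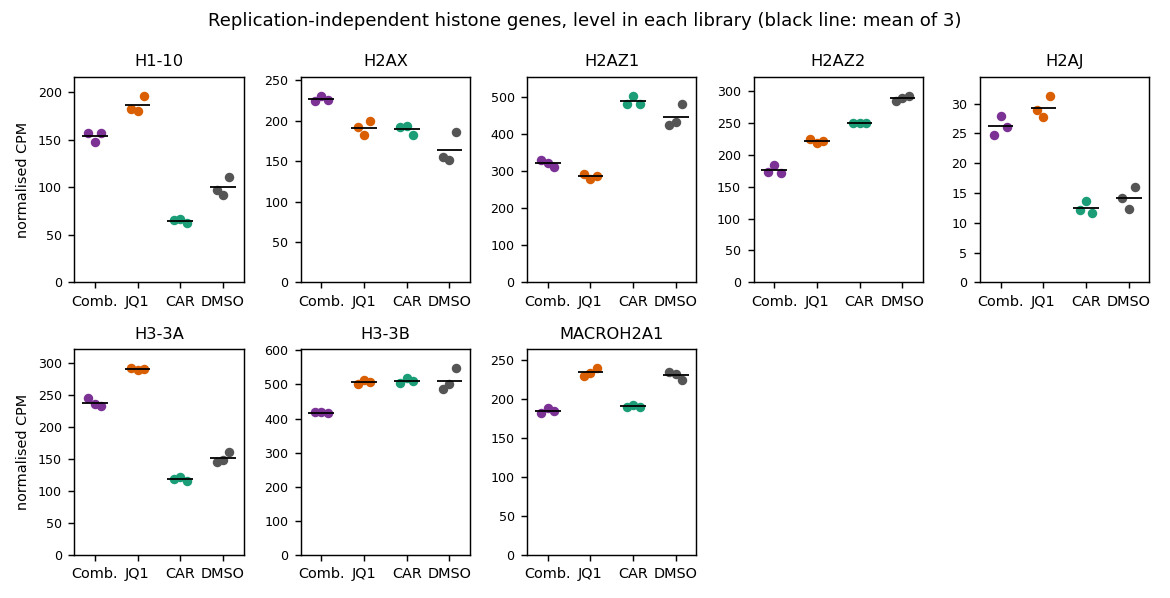
Normalised CPM of 8 replication-independent genes in each library, with axes from 0, 1 point per library and the mean of 3 as a line. H3-3A, H1-10 and H2AJ are higher with JQ1, H2AZ1 is lower with JQ1, and MACROH2A1 is lower in both groups with CAR.

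CAR alone left the clustered genes near their DMSO levels and lowered several replication-independent ones. Of the 23 clustered genes tested 0 were called higher and 3 lower than in DMSO (background 27.3% higher and 30.1% lower), with a median log2 change of -0.08. At an unadjusted p under 0.05 the numbers were 0 and 4, and by DESeq2 0 and 2. The 3 were H2BC21 (log2 -0.57 ± 0.14, edgeR adjusted p = 0.00140), H2AC6 (-0.25 ± 0.10, edgeR adjusted p = 0.0436) and H3C10 (-0.85 ± 0.35, edgeR adjusted p = 0.0458). H2AC6 and H3C10 lost the call under DESeq2 (adjusted p = 0.0826 and 0.071), and H2AC6 lost it under most alternatives. Over 18 alternatives the adjusted p ran from 0.0129 to 0.15 for H2AC6 and from 0.0315 to 0.145 for H3C10. H1-2 differed by -0.08 ± 0.14 (edgeR adjusted p = 0.643), and without DMSO library 3 by 0.15 (edgeR adjusted p = 0.0414, with 0.0414 to 0.841 over 18 alternatives). Without DMSO library 3 or without CAR library 3, 2 clustered genes were called higher. Of the 9 replication-independent genes 2 were called higher and 5 lower, with a median of -0.21. Among the lower ones were H1-10 (log2 -0.62 ± 0.06, edgeR adjusted p = 1.52e-08), H3-3A (-0.36 ± 0.04), MACROH2A1 (-0.27 ± 0.04) and H2AZ2 (-0.21 ± 0.03). H2AX and H2AZ1 were higher by 0.21 ± 0.06 and 0.13 ± 0.04. With total counts the split was 0 and 6, while over all genes it was 2636 higher and 4738 lower, against 3449 and 3801.

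With CAR added to JQ1 most clustered genes tested were not called. In Combination against JQ1 7 of 23 were called higher and 3 lower (background 26.0% higher and 25.9% lower), with a median log2 change of 0.07 and 13 not called. H3C2, H1-4, H2BC11, H2BC21, H2BC18, H4C8 and H2BC4 were the higher ones, by 0.95, 0.86, 0.85, 0.47, 0.44, 0.38 and 0.12. The call of H2BC4 (edgeR adjusted p = 0.0498) was lost under most alternatives, with an adjusted p from 0.00796 to 0.595 over 18 of them. H2BC12, H2AC11 and H2AC6 were lower, by -0.56 ± 0.05, -0.50 ± 0.16 and -0.23 ± 0.05. Of the replication-independent genes 2 were higher and 6 lower, with a median of -0.28, MACROH2A1 among the lower ones (-0.34 ± 0.04, edgeR adjusted p = 6.82e-08). With total counts the clustered split was 5 and 5 and the replication-independent one 1 and 7, while over all genes it was 2229 and 4550, against 3292 and 3275.

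Whether the JQ1 effect differed with and without CAR was tested directly, as the log2 change of Combination against CAR minus that of JQ1 against DMSO. Of the 23 clustered genes tested 2 were called with a positive and 1 with a negative difference (background 20.1% and 18.2%). H2BC21 was 31.1-fold higher in Combination than in CAR and 15.1-fold higher in JQ1 than in DMSO, a difference of 1.04 ± 0.15 log2 units (edgeR adjusted p = 1.35e-05). H2BC12 was 1.97-fold higher in Combination than in CAR and 2.76-fold higher in JQ1 than in DMSO, a difference of -0.48 ± 0.07 (edgeR adjusted p = 2.00e-05). H2BC11 differed by 0.60 ± 0.21 (edgeR adjusted p = 0.0295). That call was lost under DESeq2 (adjusted p = 0.0798) and under most alternatives, with an adjusted p from 0.0067 to 0.0913 over 17 of them. Among the replication-independent genes H1-10 had a positive difference of 0.35 ± 0.08 (edgeR adjusted p = 0.00145) and H3-3B a negative one of -0.28 ± 0.06 (edgeR adjusted p = 0.000443). For H1-2 the difference was 0.15 with an interval from -0.23 to 0.53, and for H2BC5 0.12 with an interval from -0.06 to 0.30.

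The clustered genes lie in segments, whose positions are from GENCODE 29 on GRCh38 for the 56 members matched. On chromosome 6 the segment from 25726777 to 26285638 held 22 of them, of which 6 were tested. The 5 that passed the filter without the libraries given JQ1 changed by 3.20 to 4.67 log2 units in JQ1 against DMSO. The segment from 27125897 to 27893843 held 17, of which 10 were tested, and the 6 that passed without those libraries changed by 0.36 to 2.94. On chromosome 1 the segment from 149782689 to 149887916 held 8, of which 3 were tested, and H2BC21 was the 1 that passed without them. Over all genes tested, the ranges of the chromosome 6 segments overlapped, at 1.28 to 4.67 in the first and 0.36 to 3.5 in the second. Genes that start back to back from a shared stretch could differ. H2BC11 and H2AC11, with 291 bases between the starts of their GENCODE 29 models, changed by 0.36 ± 0.16 and 2.12 ± 0.19. H2BC4 and H2AC6, with 218 bases between the starts of their models, changed by 3.47 ± 0.07 and 3.20 ± 0.07. RefSeq starts, used for the promoters above, can differ from these.

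Some transcript models carry an ordinary poly(A) signal, AATAAA or ATTAAA, at their end. A poly(A) signal stood within the last 50 bases of a model in 18 of the clustered genes. Of these 11 were tested, and the 9 that passed the filter without the libraries given JQ1 changed by 0.36 to 4.67 log2 units in JQ1 against DMSO. Of the 29 others 8 were tested, and the 3 that passed without those libraries, H1-2, H2BC12 and H2BC17, changed by 1.05 to 4.23. These ranges overlap, and the models of H1-2 and H2BC12 end with the coding sequence. Which end the transcripts had in these cells was not measured.

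Genes that act on histone mRNA and histones were followed as lists. A list of 19 genes covered the transcription, 3′ end processing, decay and other handling of histone mRNA. Of these, 5 were called higher and 13 lower in JQ1 than in DMSO (background 41.5% and 42.2%), with a median log2 change of -0.30. LSM11, a subunit of the U7 particle that directs the stem-loop cut, was 3.12-fold lower (log2 -1.64 ± 0.11, edgeR adjusted p = 4.02e-12), at 3.21 ± 0.197 normalised CPM in JQ1, against 10.0 ± 0.218 in DMSO. CPSF2, part of the cleavage complex, changed by -0.73 ± 0.04, and SRRT, which links the cap complex to 3′ ends, by -0.63 ± 0.05. SLBP, named here for its role after its value was seen, changed by -0.35 ± 0.05. UPF1, a helicase of histone mRNA decay, was higher by 0.57 ± 0.04 and CPSF1 by 0.54 ± 0.05. NPAT, the coactivator of clustered histone genes, also named for its role, differed by 0.01 ± 0.07 (edgeR adjusted p = 0.853). In CAR against DMSO 11 of the list were higher and 2 lower (background 27.3% and 30.1%), and in Combination against DMSO 6 and 12 (background 42.6% and 42.8%).

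Of 22 genes for histone chaperones and deposition 6 were higher and 13 lower in JQ1 than in DMSO (background 41.5% and 42.2%), with a median of -0.50. ASF1B, a chaperone of newly made H3 and H4, was 6.81-fold lower (log2 -2.77 ± 0.06, edgeR adjusted p = 9.77e-21), and CHAF1A, which places them behind the replication fork, 5.01-fold lower. ANP32E, a chaperone that removes H2A.Z, was 4.19-fold lower, and SSRP1, of the FACT complex, 2.10-fold lower. SUPT6H, an elongation factor that handles histones, was higher by 0.70 ± 0.04, and CABIN1, of the HIRA complex, by 0.83 ± 0.06. In CAR against DMSO 10 were higher and 5 lower (background 27.3% and 30.1%), and in Combination against DMSO 8 and 13 (background 42.6% and 42.8%). Of 13 genes for cleavage and polyadenylation of other mRNAs 3 were higher and 6 lower in JQ1, near or below the background of 41.5% and 42.2%, with a median of -0.09. NUDT21, a factor in the choice of poly(A) sites, led with -1.13 ± 0.05 (edgeR adjusted p = 5.49e-16).

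All 18 S phase genes followed were lower in JQ1 than in DMSO (background 42.2%), with a median of -2.08, and all 18 in Combination (background 42.8%), with a median of -2.25. In CAR 5 were higher and 4 lower, near the background of 27.3% and 30.1%. TYMS, which makes thymidylate, was 8.10-fold lower in JQ1 (edgeR adjusted p = 2.93e-22), RRM2, a subunit of ribonucleotide reductase, 8.33-fold, and the helicase subunits MCM3 and MCM6 4.44-fold and 3.94-fold. The fall of these genes stood beside the rise of the clustered histone counts in the same poly(A) libraries, and its part in that rise was not tested.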

How the data were processed

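RNA of 12 MDA-MB-231 libraries, 3 in each of 4 groups, was measured. The deposited values are raw read counts per gene symbol, as the authors made them with Trimmomatic, HISAT2 and HTSeq on hg38, per the submitters' processing notes, from stranded poly(A) libraries, per the labels' protocols. The gene annotation, the strand setting of the counting and its treatment of reads that match several genes are not named in the sources used here. Counts of near-identical histone copies and of overlapping genes are therefore uncertain for single genes, and sums over such copies can miss reads. The labels do not tell whether the 3 libraries of a group stem from independent cultures. The p-values therefore reflect variation among libraries that may be technical.

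Genes were filtered with filterByExpr (10 counts, 15 in total) and fitted with edgeR 4.0.16 (R 4.3.3, limma 3.58.1) by its robust quasi-likelihood test with TMM factors of 0.92 to 1.08, over all 12 libraries with 1 term per group and 8 residual degrees of freedom. P-values were adjusted by Benjamini-Hochberg over all 12645 genes tested and called under 0.05. Levels are TMM-normalised CPM, called normalised CPM, and a floor of 3 counts equals 0.152 to 0.172 CPM. Counting intervals cover counting error only. Alternatives were DESeq2 1.42.0, upper-quartile and total count scaling, no filter, a fit on only the groups compared, the replicate number as a block, and each library left out. The script was tested on simulated data. Members described singly were the 6 clustered genes with the highest mean, the highest of each family, the 2 most extreme in JQ1 against DMSO at either end, and the replication-independent genes, 1 of which is counted but not reported here; the other genes named were chosen after their values were seen. The members and lists were chosen with earlier results of these data known.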

Additional observations from a re-analysis of the deposited data

Results flagged for a closer look

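The effect of JQ1 with CAR (Combination against CAR) minus that without CAR (JQ1 against DMSO) passed the edgeR test of the difference for the genes that follow. It was positive for H2BC21 (1.04 ± 0.15 log2 units, edgeR adjusted p = 1.35e-05), H2BC11 (0.6 ± 0.21, edgeR adjusted p = 0.0295) and H1-10 (0.35 ± 0.08, edgeR adjusted p = 0.00145). It was negative for H2BC12 (-0.48 ± 0.07, edgeR adjusted p = 2e-05) and H3-3B (-0.28 ± 0.06, edgeR adjusted p = 0.000443). The call of H2BC11 was lost under most alternatives, with an adjusted p from 0.0067 to 0.0913 over 17 of them. No cause was tested for any of these genes.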

How the results depend on the processing

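Across all alternatives, 405 counts of called genes stayed within 1.5 times the reported count and 23 did not. Of the values of single genes 2011 kept direction and side of the threshold, 60 lost the call, 28 gained it and 38 changed sign. With total count scaling, CAR against DMSO gave 5 clustered genes lower and 0 replication-independent genes higher, JQ1 against DMSO 4 replication-independent genes lower, Combination against JQ1 5 clustered lower and 1 replication-independent higher, and the difference of JQ1 effects 2 replication-independent lower. Upper-quartile scaling gave 1 replication-independent gene higher in CAR. DESeq2 gave, for the difference of JQ1 effects, 1 clustered gene positive and 2 replication-independent genes negative. Leaving out 1 library gave, in CAR against DMSO, 0 to 2 clustered genes higher, 1 to 3 lower and 1 to 2 replication-independent genes higher, and for the difference of JQ1 effects 1 to 4 clustered genes positive and 1 to 2 replication-independent genes negative. Over TMM effective library sizes the clustered sum was 0.139% in Combination, and the replication-independent sum was 0.199% in Combination, 0.233% in JQ1, 0.198% in CAR and 0.223% in DMSO.

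Sign changes concerned values that were not called in the fit reported above. After the change H1-2 in CAR passed the test without DMSO library 3 (0.15, edgeR adjusted p = 0.0414). MACROH2A1 in JQ1 passed it with total counts (-0.09, edgeR adjusted p = 0.0179). With upper-quartile and total count scaling H3C3 in CAR became -0.02 and -0.05 and MACROH2A1 in JQ1 -0.03 and -0.09. H3-3B in CAR was 0.01 with no filter and 0.01 with only the groups compared. With total counts H1-2 in Combination against JQ1 became -0.02 and the H2AC6 difference of JQ1 effects -0.01. Leaving out 1 library moved, in CAR, H1-2 between -0.18 and 0.15, H3C3 between -0.46 and 0.27 and H3-3B between -0.04 and 0.05; in JQ1, H3-3B between -0.05 and 0.04; and in Combination against JQ1, H3C10 between -0.23 and 0.05 and H2AC19 between -0.27 and 0.25. For the difference of JQ1 effects the ranges were -0.08 to 0.25 for H1-2, -0.03 to 0.1 for H2AC6, -0.38 to 0.12 for H4C8, -0.07 to 0.12 for H2AJ, -0.06 to 0.09 for H2AX and -0.03 to 0.07 for H2AZ1. The cause was not tested.

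Same-numbered libraries did not deviate together (r from -0.31 to 0.26 over 18 pairs, 3 above 0.1), so the numbers were not taken to pair them. With the replicate block, JQ1 against DMSO gave 21 clustered genes higher, CAR against DMSO 2 lower, and Combination against JQ1 6 higher and 3 lower. Depth limits the 28 clustered genes not tested, with at most 14 counts in any library.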
